A study of Saccharomyces cerevisiae with 18 samples.

Results

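Aminoacyl-tRNA synthetases load each amino acid onto its transfer RNA, and a eukaryotic cell needs a set for translation in the cytosol and another for translation in the mitochondrion. The genes described here are the 35 nuclear genes of Saccharomyces cerevisiae listed as synthetases, 14 for the mitochondrial and 21 for the cytosolic enzymes, taken wherever the name of a transcript feature held one of them. Of the 3974 features of the table of the whole series, 30 did so, 12 mitochondrial and 18 cytosolic. They held 162 single-nucleotide variants (SNVs) and 173109 reads, 1.27% of the 13626796 reads that could be assigned to a parent (24949 mitochondrial and 148160 cytosolic). GLN4, GUS1, MES1 and MSF1 had no feature, and AIM10 had one outside the table of the whole series. YDR341C, the cytosolic arginyl enzyme, and YHR020W, the cytosolic prolyl enzyme, are called by their systematic names.

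The study followed mRNA decay in 1 diploid hybrid of the laboratory strain BY4716 (BY) and the vineyard strain RM11-1a (RM), homozygous for rpb1-1, a mutation that makes the largest subunit of RNA polymerase II temperature-sensitive. Cultures grown at 24 °C in rich glucose medium were brought to 37 °C with hot medium, which inhibits transcription by that polymerase. Poly(A) RNA was sequenced straight after the shift (0 min), every 6 min up to 24 min and once more at 42 min, in 3 cultures each, which gave 18 libraries. Every library is of the hybrid with rpb1-1 on both sides, so the 0 min libraries are the only baseline and no culture was left unshifted. Library totals were 439453 to 1180513 allelic reads, apart from 18 min replicate 3 with 74320. LYS2, which is deleted in BY4716, had 0.609% ± 0.529 BY reads at 0 min (SD, n = 3).

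A feature that holds several overlapping genes is written with all of their names, as KRS1/ENA5, and its value cannot be given to 1 of them. Of the 30 features, 17 held 1 gene (7 mitochondrial, 10 cytosolic) and 13 held several (5 mitochondrial, 8 cytosolic). Abundance is in CPM, the count scaled to a common library size after normalisation over all allelic reads, so it is a share of the RNA that remained, not an amount per cell, and fewer cells and less RNA per cell cannot be told apart. A mean of 20 reads per library was needed for the tests, which 25 features reached, 8 mitochondrial and 17 cytosolic. Too low were MSE1, MSW1, SLM5, MSY1/ERI1 and SES1/YDR024W/RPS11A.

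Some cytosolic members are not cytosolic alone. ALA1, VAS1, HTS1, GRS1 and CRS1, for alanine, valine, histidine, glycine and cysteine, are known to supply both compartments from 1 gene, while the other amino acids with a mitochondrial member have separate genes. In yeast, nuclear mRNAs for mitochondrial proteins are known for binding sites of Puf3, an RNA-binding protein that promotes their decay in glucose medium. Cytosolic synthetase genes are among known targets of Gcn4, the transcription factor of the amino acid starvation response.

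A motif beyond the stop codon was counted in the R64 reference (sacCer3), the RefSeq assembly of S288C, to which the BY parent is closely related. The letters TGTANATA, the core of a Puf3 site, were searched on the coding strand in the 250 bases after the stop codon. All 14 mitochondrial genes held a match (100%) and 4 of 21 cytosolic genes did (19%), with 910 of 6026 genes in all (15.1%). The stricter TGTAAATA was held by 12 of 14 mitochondrial genes (85.7%) and 0 of 21 cytosolic genes, against 274 of 6026 genes (4.55%). ISM1, the mitochondrial isoleucyl gene, and AIM10 had the T form only. Beyond the match nearest the stop codon, MSK1 held another TGTAAATA and NAM2 another match, of the T form, farther downstream. MSF1, whose nearest match is of the T form, held a TGTAAATA farther downstream. The 7 mitochondrial genes measured as features of their own are shown for comparison with their changes below. Only the nearest match of each is shown, in capitals and in coding orientation.
MSK1, chrXIV:490131-490160, plus strand: gccaatgctttTGTAAATAaatcagacata
SLM5, chrIII:160634-160663, minus strand: aagaccatcctTGTAAATAtaataatgtag
DIA4, chrVIII:129125-129154, plus strand: taagaaaatctTGTAAATAtgtaatcttat
NAM2, chrXII:882016-882045, minus strand: ccactagtgctTGTAAATAgttaaatatta
ISM1, chrXVI:475957-475986, minus strand: tgtacctttccTGTATATAaagaatgccaa
MSE1, chrXV:265113-265142, plus strand: caatagggtcaTGTAAATAcgtcatataca
MSW1, chrIV:1005165-1005194, plus strand: tgcaaacgcaaTGTAAATAataatacagtt

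Upstream, the Gcn4 core TGACTC was searched on both strands in the 300 bases before the start codon; a match on the other strand reads GAGTCA. It was present in 1 of 14 mitochondrial genes (7.14%) and 9 of 21 cytosolic genes (42.9%), with 466 of 6026 genes in all (7.73%). DED81 (YHR019C), the asparaginyl gene, and YHR020W are divergent neighbours 437 bases apart on chromosome VIII, and the same bases serve as the match of both. That site is shown from each side, with those of other single-gene cytosolic members, the match in capitals. A match is a description of the letters and not of binding, and the RM sequence was not searched.
YHR020W, chrVIII:143803-143830, plus strand: aagcgatgcttGAGTCActgaatgtctt
DED81, chrVIII:143803-143830, minus strand: aagacattcagTGACTCaagcatcgctt
VAS1, chrVII:672077-672104, plus strand: tttttttagaaGAGTCAcccatacagcc
YDR341C, chrIV:1153810-1153837, minus strand: aagtgtctaatGAGTCAgttatttcttt
CRS1, chrXIV:182778-182805, plus strand: ttcatcgcgaaGAGTCAaaagacattat
THS1, chrIX:212284-212311, plus strand: tactgtttaaaTGACTCttaccttgtga

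By 42 min the cytosolic features were lower in normalised abundance, while the mitochondrial features were mixed. Of 8 mitochondrial features tested, 3 rose and 2 fell, with a median log2 change of 0.24. Of 17 cytosolic features, 15 fell and 0 rose, with a median of -1.08. Over all 2840 features tested 37.2% rose and 39% fell, with a median of -0.05, 76.3% passing in either direction (edgeR's quasi-likelihood test, adjusted by Benjamini-Hochberg, threshold 0.05). With library totals in place of TMM factors the median of all features was -0.37 (756 rose and 1409 fell), 17 cytosolic features fell, 2 mitochondrial rose and 3 fell, NAM2 turned to -0.24, and MSD1/FMP30 missed the threshold (0.31). In features of 1 gene, 1 rose and 1 fell of 4 mitochondrial features and 8 fell of 10 cytosolic ones. The ± beside a log2 value stands in for its standard error and is its size over the root of the test's F.

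**Figure D1:**
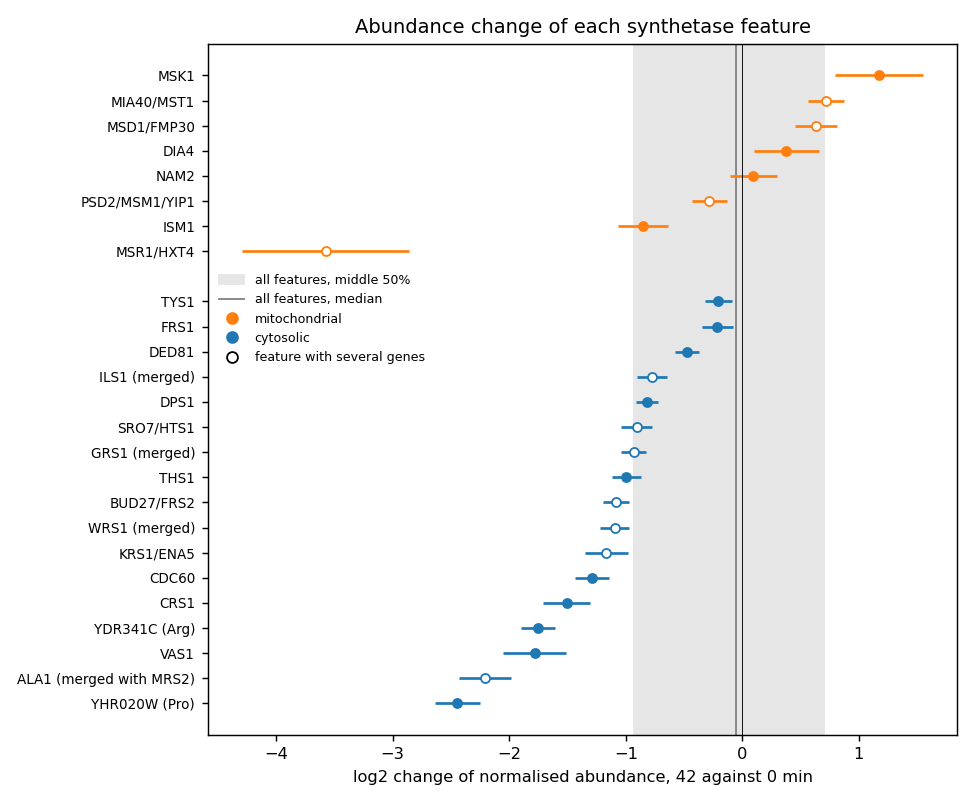
Log2 change of normalised abundance at 42 against 0 min for each tested synthetase feature, mitochondrial above and cytosolic below, with bars for the ± of each value; open circles are features of several genes, the grey line and band are the median and the middle 50% of all 2840 features. Every cytosolic point lies below 0, from -2.45 to -0.21, and the mitochondrial points run from -3.58 to 1.17.

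Among the 8 mitochondrial features tested the largest rise was that of MSK1, the mitochondrial lysyl enzyme (YNL073W). It had 31.4, 42.7 and 72.1 CPM at 42 min, against 26.8, 20.7 and 19.9 CPM at 0 min. All 42 min values lay above all 0 min values, most in culture 3, and the fitted change was 1.17 ± 0.38 (adjusted p = 0.00914 in edgeR). Culture 2 or 3 decides that call, since without replicate 2 the change was 1.23 at an adjusted p of 0.0734 and without replicate 3 it was 0.69 at an adjusted p of 0.109. MIA40/MST1 holds the threonyl gene MST1 and MIA40, a receptor for protein import into the intermembrane space. It had 906, 1033 and 1431 CPM at 42 min, against 716, 689 and 651 CPM at 0 min, with no overlap (0.72 ± 0.16, edgeR adjusted p = 0.000389). The reads lay mostly on the first 3 of its 11 SNVs in index order, the side of MIA40 on the chromosome, which had 969 ± 259.5 CPM at 42 min and 581 ± 30.9 CPM at 0 min (SD, n = 3). The later 8 SNVs, on the side of MST1, had 154 ± 14.5 CPM at 42 min and 104 ± 15.3 CPM at 0 min (SD, n = 3).

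MSD1/FMP30 holds the mitochondrial aspartyl gene MSD1 and FMP30, a mitochondrial phospholipase-like protein. The feature had 94.1, 104 and 136 CPM at 42 min, against 61.5, 80.9 and 72.2 CPM at 0 min, again without overlap (0.63 ± 0.18, edgeR adjusted p = 0.00331). Without replicate 3 this call was lost (0.45, adjusted p = 0.0871). Its 4 SNVs with at least 20 reads at 0 min rose unevenly. The first in index order changed by 1.05 on the log2 scale, and the later ones by 0.40, 0.26 and 0.12. The feature's value therefore cannot be read as that of MSD1. DIA4, the mitochondrial seryl enzyme, passed at 24 min (0.76 ± 0.27, adjusted p = 0.0167) and not at 42 min (0.38 ± 0.28, adjusted p = 0.227, edgeR). NAM2, the leucyl enzyme that also helps splice mitochondrial introns, passed at no time. Its means were 206, 246, 248, 208, 252 and 219 CPM from 0 to 42 min.

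Of the 8 mitochondrial features tested, those that fell were MSR1/HXT4 and ISM1. MSR1/HXT4 holds the arginyl gene and a hexose transporter gene. It had 26.1, 40.2 and 8.70 CPM at 42 min, against 625, 163 and 139 CPM at 0 min (-3.58 ± 0.72, edgeR adjusted p = 0.000174), and culture 1 started far above the other 2. Its 6 SNVs with at least 20 reads at 0 min changed by -4.00 to -2.84 on the log2 scale, lower at each of them. ISM1 (YPL040C), with 20 SNVs and no partner gene, had 78.4, 85.3 and 107 CPM at 42 min, against 165, 162 and 166 CPM at 0 min (-0.85 ± 0.21, edgeR adjusted p = 0.00131). No value at 42 min reached the lowest at 0 min. PSD2/MSM1/YIP1, which holds the methionyl gene MSM1 beside genes of phospholipid synthesis and vesicle transport, had 153, 136 and 155 CPM at 42 min, against 179, 186 and 175 CPM at 0 min. The groups did not overlap, yet the change of -0.28 ± 0.15 missed the threshold (edgeR adjusted p = 0.0888). Its SNVs went both ways. The first 3 in index order changed by -0.79, -0.75 and -1.39 on the log2 scale, and the later ones ran from -0.32 to 0.91. The feature's value therefore cannot be read as that of MSM1.

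The largest decrease of a cytosolic feature as a whole was that of YHR020W, the prolyl enzyme (chrVIII:143996-146062). It had 33.1, 58.5 and 33.6 CPM at 42 min, against 239, 222 and 234 CPM at 0 min, a change of -2.45 ± 0.19 (edgeR adjusted p = 1.03e-09), lower in 3 of 3 cultures. It had already fallen at 6 min (-0.41 ± 0.16, adjusted p = 0.0487), when it was the only synthetase feature called of 25, against 17.3% of all features that fell and 17.6% that rose (34.9% together). The feature with ALA1, the alanyl enzyme, and MRS2, a mitochondrial magnesium channel, had 22.6, 36.6 and 43.5 CPM at 42 min, against 179, 159.9 and 152 CPM at 0 min (-2.21 ± 0.22, edgeR adjusted p = 3.16e-08). Its SNVs 6 and 7 in index order changed by -2.46 and -2.95 on the log2 scale, and SNVs 1 to 5 by -1.70 to -0.21. They were compared after their values were seen. VAS1 (YGR094W), the valyl enzyme, had 22.6, 20.7 and 11.2 CPM at 42 min, against 77.6, 59.2 and 51.6 CPM at 0 min from 1 SNV (-1.78 ± 0.27, edgeR adjusted p = 7.54e-06). None of these groups overlapped.

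YDR341C (arginine) changed by -1.75, CRS1 (cysteine) by -1.51 and CDC60 (leucine) by -1.29 on the log2 scale at 42 min. KRS1/ENA5 (lysine, with a sodium pump gene), the WRS1 feature (tryptophan), BUD27/FRS2 (phenylalanine, alpha subunit), THS1 (threonine), GRS1/YBR121C-A (glycine), SRO7/HTS1 (histidine, with an exocytosis gene), DPS1 (aspartate) and the ILS1 feature (isoleucine) fell by 0.77 to 1.17. ENA5 has near-identical copies in ENA1 and ENA2, so KRS1/ENA5 is uncertain in that respect; no synthetase gene itself had a copy of at least 90% identity over 100 bases. The cytosolic features of 5 genes that also serve mitochondria all fell, from -2.21 for the ALA1 feature to -0.91 for SRO7/HTS1.

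Another 3 cytosolic features changed least. TYS1 (YGR185C), the tyrosyl enzyme, had 671, 630.0 and 553 CPM at 42 min, against 738, 729.7 and 673 CPM at 0 min (-0.21 ± 0.12, edgeR adjusted p = 0.108). FRS1, the beta subunit of the phenylalanyl enzyme, had 1427, 1206 and 975 CPM at 42 min, against 1526, 1400.2 and 1258 CPM at 0 min, and these groups overlapped (-0.21 ± 0.13, edgeR adjusted p = 0.149). With the culture number as a block, both passed in edgeR, at an adjusted p of 0.029 for TYS1 and 0.0144 for FRS1, so that 17 of 17 fell. The alpha subunit of the same enzyme lies in BUD27/FRS2, which changed by -1.08 ± 0.11. There the first 6 of 13 SNVs, on the side of BUD27, a prefoldin-like gene, had 15.98 ± 10.5 CPM at 42 min and 132 ± 20.9 CPM at 0 min. The later 7, on the side of FRS2, had 383 ± 62.9 CPM at 42 min and 712 ± 40.7 CPM at 0 min (SD, n = 3). The first 6 changed by -3.72 to -2.45 on the log2 scale. Of the later 7, 1 changed by -2.93, on 5 reads at 42 min and 55 reads at 0 min, and the rest by -1.21 to -0.66. Both splits were chosen after the values were seen, and index order is taken to follow the chromosome.

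DED81 and YHR020W lie on either side of 1 intergenic stretch. DED81 had 359, 312 and 305 CPM at 42 min, against 413, 498 and 438 CPM at 0 min from 1 SNV (-0.48 ± 0.10, edgeR adjusted p = 0.000315). Its means from 0 to 42 min were 450.0, 535, 506, 407, 375 and 325 CPM, and those of YHR020W were 232, 174, 80.4, 54.4, 54.6 and 41.7 CPM. YHR020W had fallen by 12 min (-1.52 ± 0.18, edgeR adjusted p = 9.85e-07), when DED81 had changed by 0.17 ± 0.10 (adjusted p = 0.166). The pair was singled out after its values were seen, and their difference was not tested.

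**Figure D2:**
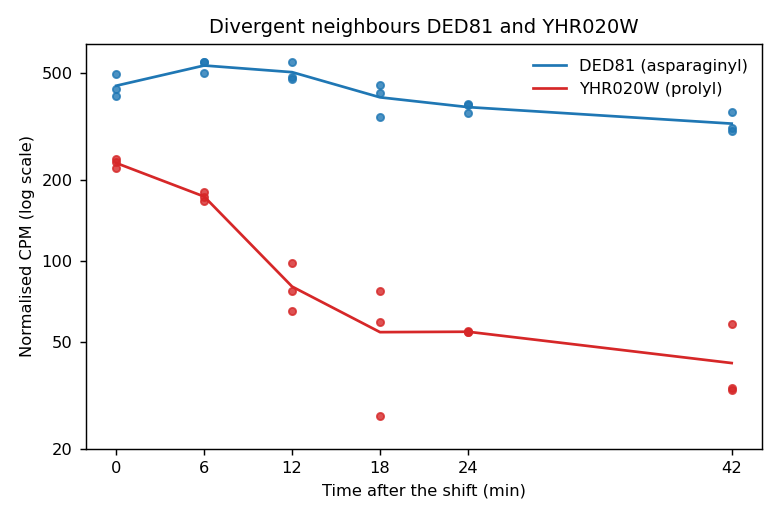
Normalised CPM (log axis) of DED81 and YHR020W against minutes after the shift, with a point per library and a line through the means of 3 cultures. At 12 min YHR020W had changed by -1.52 on the log2 scale and DED81 by 0.17. At 42 min the changes were -2.45 for YHR020W and -0.48 for DED81.

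The medians parted with time. At 12 min 1 of 8 mitochondrial features had risen, MIA40/MST1, and 3 of 17 cytosolic ones had fallen, namely YHR020W, the ALA1 feature and BUD27/FRS2, against 27.8% of all features that rose and 26.8% that fell (54.6% together). With the culture number as a block these counts at 12 min were 2 mitochondrial features risen and 2 fallen and 5 cytosolic ones fallen, and with library totals they were 0, 1 and 11. The MIA40/MST1 call at 12 min was lost without replicate 2 or 3. At 18 min 1 mitochondrial feature had risen and 1 had fallen, and 14 cytosolic ones had fallen (of all features 29.8% rose and 30.6% fell, 60.4% together). At 24 min 3 mitochondrial features had risen and 2 had fallen, and 17 of 17 cytosolic ones had fallen (of all features 33% rose and 33.4% fell, 66.3% together). The cytosolic median went through 0.02, -0.24, -0.62, -0.89 and -1.08 at the 5 later times, and the mitochondrial median through 0.16, 0.10, 0.12, 0.29 and 0.24. THS1, the threonyl enzyme, had 2352, 2465, 2403, 1626, 1299 and 1181 CPM from 0 to 42 min.

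**Figure D3:**
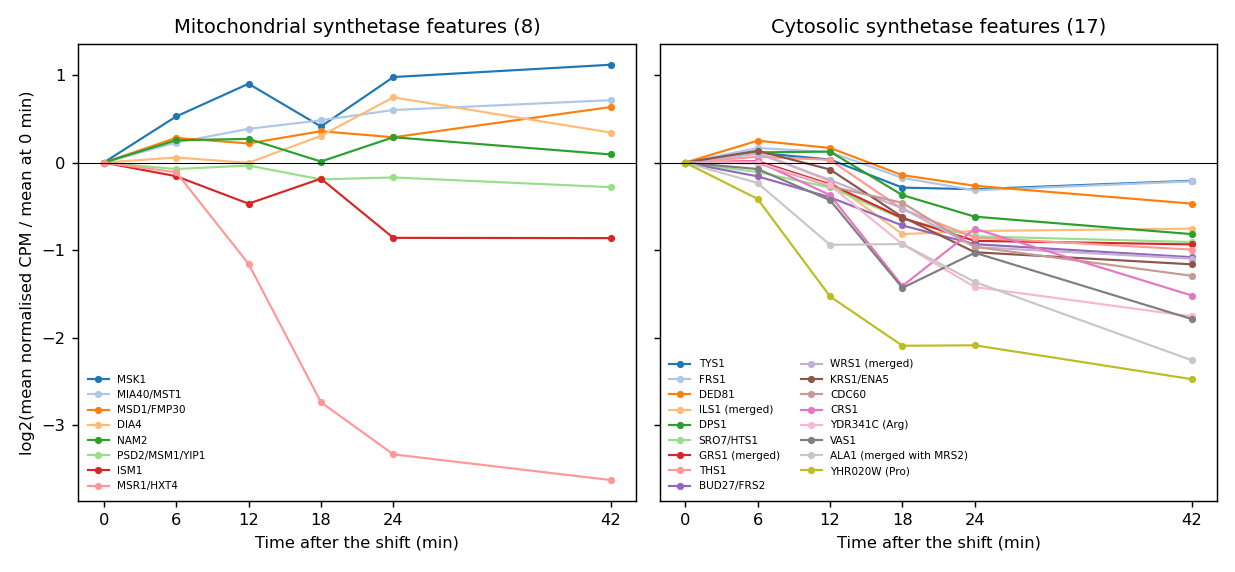
Log2 of the mean normalised CPM of 3 cultures over the mean at 0 min, against minutes after the shift, for the 8 mitochondrial features (left) and the 17 cytosolic features (right) tested. Most cytosolic lines stay near 0 until 12 min and lie below it from 18 min on, while 5 mitochondrial lines end above 0.

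Summed over all members, mitochondrial reads per 100 cytosolic reads were 27.3 ± 10.8 at 42 min and 13.4 ± 1.96 at 0 min (SD, n = 3). The log2 ratio of 42 over 0 min was 0.36, 0.93 and 1.61 in cultures 1 to 3, with a mean of 0.97 (SD 0.63), and 0.64 without culture 3. The ratio is one of reads at SNVs, not of molecules, since genes differ in length and SNV number. Mitochondrial members summed to 1885 ± 434 CPM at 42 min and 1745 ± 304 CPM at 0 min, within their spread. MIA40/MST1 made up 1123 CPM of that sum at 42 min and 685 CPM at 0 min, most of it on the side of MIA40, which is no synthetase. Single-gene mitochondrial features summed to 452 ± 139 CPM at 42 min and 473 ± 39.1 CPM at 0 min. Cytosolic members summed to 7180.3 ± 1021 CPM at 42 min and 13013 ± 817 CPM at 0 min. With single-gene features the ratio was 9.28 ± 4.27 at 42 min and 5.49 ± 0.759 at 0 min, and its log2 change 0.25, 0.59 and 1.17.

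**Figure D4:**
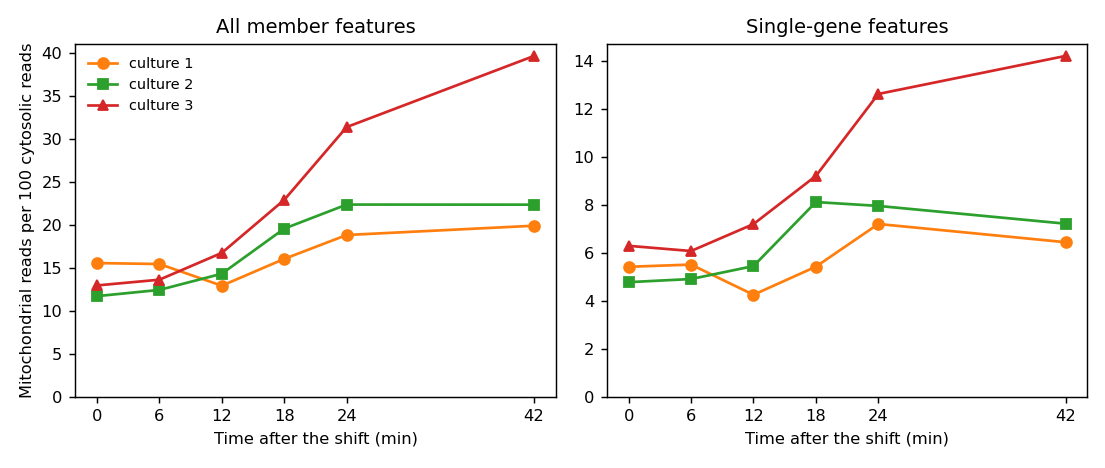
Mitochondrial reads per 100 cytosolic reads in each culture against minutes after the shift, for all member features (left) and for single-gene features (right). Each culture ends above its own start, and culture 3 ends highest.

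For 10 amino acids the mitochondrial and the cytosolic enzyme each have a feature, which sets the features of 1 amino acid side by side. Only for leucine and asparagine do both features hold a single gene. For the others at least 1 feature holds further genes, so the comparison is not one of synthetase mRNAs alone. For threonine, most reads of MIA40/MST1 lay on the side of MIA40. The mitochondrial feature changed to a higher log2 value than the cytosolic one in 3 of 3 cultures for aspartate, lysine, threonine, leucine and asparagine. For lysine, MSK1 changed by 0.23, 1.04 and 1.86 in cultures 1 to 3 and KRS1/ENA5 by -0.92, -0.84 and -1.95. For leucine, NAM2 changed by -0.10, -0.05 and 0.33 and CDC60 by -1.34, -1.11 and -1.49. For isoleucine it was higher in 1 culture, with ISM1 at -1.07, -0.92 and -0.63 and the ILS1 feature at -0.31, -0.90 and -1.10. For arginine it was higher in 0 cultures, as MSR1/HXT4 changed by -4.58, -2.02 and -4.00 and YDR341C by -1.82, -1.35 and -2.21. The mitochondrial feature was higher in 1 of 3 cultures for tyrosine, in 1 for tryptophan and in 2 for serine. Culture 1 gave no comparison for tryptophan and serine, for want of reads. The values for asparagine, tyrosine, tryptophan and serine each rest on 1 feature under the minimum of reads. For asparagine this is SLM5, with 52 reads at 42 min and 26 reads at 0 min.

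Features with too few reads were fitted without the minimum. SLM5, the mitochondrial asparaginyl enzyme, had 15.7, 15.8 and 37.3 CPM at 42 min, against 10.7, 4.70 and 9.58 CPM at 0 min, a change of 1.52 ± 0.38 (adjusted p = 0.00133 in edgeR). MSW1, the tryptophanyl enzyme, had 0, 4 and 6 reads at 42 min, against 9, 10 and 18 reads at 0 min (-1.31 ± 0.50, edgeR adjusted p = 0.025). MSE1 (glutamate) changed by -0.88 ± 0.41 (edgeR adjusted p = 0.0597), MSY1/ERI1 (tyrosine, with a gene of GPI anchor synthesis) by 0.04 ± 0.37 (adjusted p = 0.941), and the SES1 feature, on 39 reads in all, by -1.23 ± 0.83 (adjusted p = 0.198). RPS11A in that feature has a near-identical copy.

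The next comparison asked whether the BY and the RM transcript of a synthetase were lost at unequal rates, which would shift the BY share of a feature's reads with time. DPS1, the cytosolic aspartyl enzyme (YLL018C, chrXII:109902-111575), was the only one of 25 features called, with a rising BY share, so that the RM transcript fell faster. Over all 2808 features 6.7% were called, 3.63% rising and 3.06% falling. The DPS1 enzyme is known to bind its own mRNA and to limit its own expression.

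The BY share of DPS1 in cultures 1 to 3 was 50.3%, 50.7% and 47.7% at 0 min, 50.4%, 51.6% and 52.1% at 6 min and 53.3%, 52.0% and 54.4% at 12 min. It was 53.2%, 55.3% and 64.1% at 18 min, 54.3%, 55.9% and 60.2% at 24 min and 59.3%, 59.6% and 59.9% at 42 min. No culture at 42 min came within the range at 0 min, and the high value of 64.1% came from the shallow library, on 131 reads. The Wilson 95% interval of a library's share was 1.81 to 8.11 percentage points to each side, for counting error only. It takes the counts at all SNVs as separate reads, so it is too narrow where 1 read covers several SNVs. Log2(BY/RM) rose by 0.62 ± 0.07 over 42 min (edgeR adjusted p = 2.03e-10, higher in 3 of 3 cultures). The alternatives tried all kept this call, with values from 0.54 to 0.74. The total of DPS1 fell meanwhile, with 1407, 1277 and 1135 CPM at 42 min, against 2181, 2399 and 2149.6 CPM at 0 min.

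The rise was shared along the DPS1 transcript. At each of its 9 SNVs the pooled BY share was higher at 42 min than at 0 min, with 53.7% to 67.9% at 42 min and 39.0% to 54.6% at 0 min. The 6th SNV in index order started lowest, at 39.0%, and reached 54.4%. A read that covers several SNVs counts at each, so the 9 are not independent. With the deepest SNV alone the change was 0.55 (edgeR adjusted p = 0.0295).

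**Figure D5:**
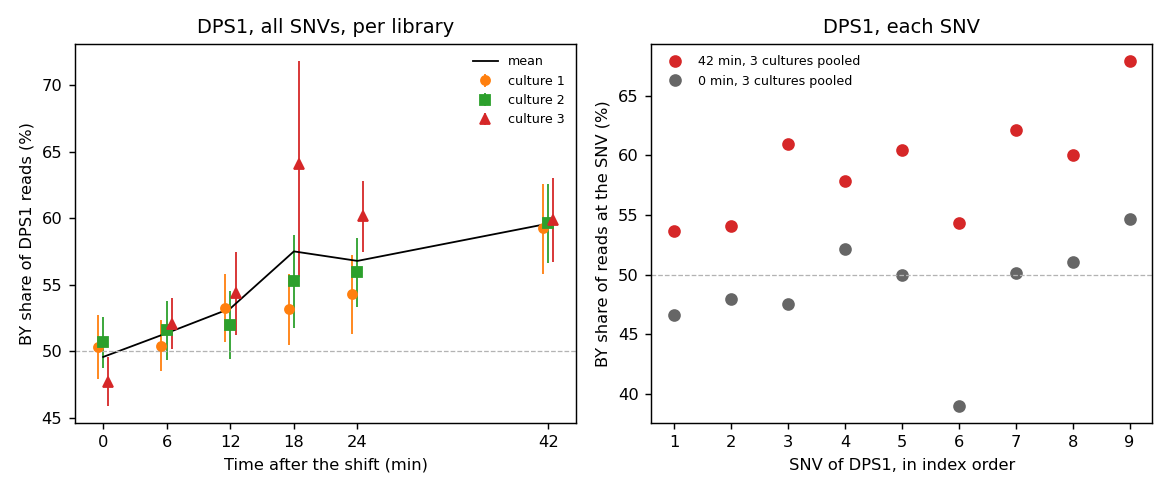
BY share of DPS1 reads in percent, left per library against minutes after the shift with Wilson 95% intervals and the mean line, right at each of the 9 SNVs with 3 cultures pooled. The 3 libraries of 42 min lie at 59.3% to 59.9% and those of 0 min at 47.7% to 50.7%, and each SNV is higher at 42 min.

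THS1, with 26463 reads in all libraries beside 26951 for DPS1, changed in log2(BY/RM) by 0.01 ± 0.07 (edgeR adjusted p = 0.992). FRS1 changed by 0.21 ± 0.07 and missed the threshold (adjusted p = 0.0839 in edgeR), with 52.9%, 51.2% and 51.9% BY reads at 42 min, against 48.6%, 49.0% and 48.9% at 0 min. The other 22 features lay between -0.27 and 0.67. Among all synthetase features tested, 5 of 8 mitochondrial values and 4 of 17 cytosolic ones were negative. The ± ran up to 0.38 among mitochondrial features and 0.43 among cytosolic ones, so moderate changes of such features were not detectable at this depth.

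At 0 min, 7 of 26 features tested differed between the alleles, 1 of 9 mitochondrial and 6 of 17 cytosolic, against 23% of 3030 features (10.5% BY higher, 12.5% RM higher). YDR341C was lower from BY, with 43.7%, 42.2% and 42.8% BY reads in cultures 1 to 3 (log2(BY/RM) -0.42 ± 0.06, edgeR adjusted p = 1.42e-05). It lay between 34.5% and 45.7% in every library up to 42 min and its ratio changed by 0.03 ± 0.14 over the time course. MIA40/MST1 had 45.6%, 45.4% and 42.0% BY reads (-0.34 ± 0.06, edgeR adjusted p = 0.000285) and the ILS1 feature 43.5%, 46.1% and 44.7% (-0.29 ± 0.10, edgeR adjusted p = 0.0303). At the first 3 SNVs of MIA40/MST1, on the side of MIA40, the pooled BY share at 0 min was 46.0%, 37.0% and 49.8%, on 309 to 804 reads each. At the later 8, on the side of MST1, it ran from 32.5% to 57.1%, on 19 to 64 reads each. The call thus cannot be given to MST1. In the ILS1 feature the difference came from 1 SNV, and with a further SNV of the tables per library it was -0.03.

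BY was higher for 4 cytosolic features. THS1 had 52.9%, 53.7% and 51.0% BY reads (0.14 ± 0.04, edgeR adjusted p = 0.0079). The WRS1 feature had 49.3%, 56.9% and 56.3% (0.26 ± 0.07, edgeR adjusted p = 0.00863) and BUD27/FRS2 53.8%, 51.8% and 53.9% (0.18 ± 0.05, edgeR adjusted p = 0.0189). CRS1, the cysteinyl enzyme, had 56.5%, 59.8% and 70.6% (0.81 ± 0.19, edgeR adjusted p = 0.00293), but 2 of its 3 SNVs had 0 RM reads, and with SNVs outside 2% to 98% BY reads removed the value was 0.05. Leaving out 1 culture ended the calls of THS1 (replicate 2), CRS1 (3), BUD27/FRS2 (1 or 3), the WRS1 feature (2 or 3) and the ILS1 feature (any). By DESeq2 YDR341C alone remained of the 7.

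Of the genes that act beside the synthetases, 20 were listed and 15 tested for abundance at 42 against 0 min, of which 4 rose and 5 fell, where 37.2% of all features rose and 39% fell. Those that rose were MEF2 and the MEF1 feature, for mitochondrial elongation factors, TUF1, the mitochondrial elongation factor Tu, and MSN5, a nuclear export receptor. MEF2 had 36.6, 39.0 and 63.4 CPM at 42 min, against 24.1, 16.9 and 25.8 CPM at 0 min (1.07 ± 0.27, edgeR adjusted p = 0.00132), and FYV7/MEF1 had 1073, 1176 and 1685 CPM at 42 min, against 679, 679 and 746 CPM at 0 min (0.90 ± 0.19, adjusted p = 0.000298). Those that fell were DTD1, which clears D-amino acids from tRNA, LOS1, a tRNA exporter, CCA1, which adds the CCA end, GCN20/YFR009W-A and GCN4. DTD1 had 41.8, 47.5 and 29.8 CPM at 42 min, against 85.6, 91.2 and 67.8 CPM at 0 min (-1.03 ± 0.26, edgeR adjusted p = 0.00133), and LOS1 had 219, 264 and 228 CPM at 42 min, against 388, 391 and 387 CPM at 0 min (-0.71 ± 0.11, adjusted p = 8.47e-06). The feature with ARC1, a cofactor of the methionyl and glutamyl enzymes, changed by 0.06 ± 0.11 (adjusted p = 0.661). For allele-specific decay 1 of 15 was called, a share near the 6.7% of all features, namely RRF1, the mitochondrial ribosome recycling factor (0.75 ± 0.24, edgeR adjusted p = 0.0464), a call lost when any 1 culture was left out. Its BY share was 61.8%, 61.7% and 60.7% at 42 min, against 50.0%, 43.7% and 47.1% at 0 min.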

How the data were processed

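The members and gene lists were chosen with earlier results of these data known. Libraries of poly(A) RNA were made, per the labels' protocols, with a TruSeq v2 kit, which does not mark strand, so a read from overlapping genes of opposite strands cannot be given to either, and all libraries ran in 1 lane as paired reads of 50 bp. The deposited values are raw counts of reads per SNV and allele. Reads were aligned by the authors to each parent's genome, per the file headers, duplicates were removed, and overlapping genes were merged into 1 feature. The submitters' processing notes name BWA 0.5.9, Picard 1.43 and sacCer3. The libraries' own tables hold 35952 SNVs, of which 30497 stand, with the same counts, in the deposited table of the series. The smaller set served for the main results and the full set as an alternative. The reason for leaving out the rest, 9.82% of the reads, is not stated in the sources used here.

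Counts were summed per feature and allele. Read numbers of features are such sums, in which a read that covers several SNVs counts at each. With edgeR 4.0.16 (R 4.3.3), abundance was tested by the quasi-likelihood test on both alleles summed, with TMM factors and a level for each time. Allele-specific decay was tested on 36 allele columns with library, allele and allele by minutes terms, and the slope was multiplied by 42 min. Allele-specific expression used the 0 min libraries. All features were fitted, with a mean of at least 20 reads per library, for decay also 2 per allele, and Benjamini-Hochberg adjustment over all of them at a threshold of 0.05. CPM used the totals times the TMM factor. DESeq2 1.42.0, other scalings, filters, SNV sets and left-out cultures were alternatives. Intervals cover counting error only, since reads carry no molecular identifiers, and take the counts at all SNVs as separate reads. Scripts were tested on simulated data.

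Full values were given for members called for allele-specific decay or expression, for the 3 highest and 3 lowest abundance changes of each compartment, and, of the other-pathway list, for those called for decay and the 2 highest and 2 lowest changes; other genes were named after their values were seen. Per the labels, aliquots of 1 culture were taken at each time, so replicate numbers pair them. Their departures from each time's mean log2 CPM correlated with a median of 0.159 between libraries of the same number (from -0.044 to 0.452, 45 pairs) and -0.058 between different numbers. No 2 libraries of 1 time agreed within sampling noise (chi-square over its degrees of freedom 1.35 to 8.61, 18 pairs). Motifs were searched in R64, the assembly that sacCer3 stands for, and near-identical copies with blastn 2.17.0. Positions are 1-based, and SNVs were placed by index alone, which ascended with gene order in all 2750 neighbouring pairs of single-gene features.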

Additional observations from a re-analysis of the deposited data

Results flagged for a closer look

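Reads at member SNVs of the tables per library that the table of the whole series does not hold were looked at apart. Each is flagged for signal in data outside the main measurement, above what a count of 0 allows (3 reads). MIA40/MST1 had 5841 such reads at 3 SNVs (45.9% BY), the ILS1 feature (YBL077W/ILS1) 4802 at 1 SNV (49.7%), GRS1/YBR121C-A 2012 at 1 SNV (55.2%) and the WRS1 feature (snR58/YOL097W-A/WRS1) 841 at 1 SNV (54.2%). CRS1 had 1371 reads at 5 SNVs, 1370 of them BY. BUD27/FRS2 had 174 and MSY1/ERI1 225, none of them RM. AIM10/YER087C-A, a probable mitochondrial prolyl enzyme gene with a partner, had 542 at 4 SNVs (50.2% BY) and no reads in the table of the whole series. It had 20, 38 and 57 reads at 42 min, against 32, 32 and 54 reads at 0 min.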

How the results depend on the processing

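Of the 25 tested changes at 42 against 0 min, 1 changed sign: NAM2, at -0.079 to 0.16 with a replicate left out (negative without replicate 3) and -0.24 with library totals. Library totals moved the median of all features to -0.37 at 42 min and -0.23 at 12 min. The cause was not tested.

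Single-gene features gave 8 cytosolic features fallen, 1 mitochondrial risen and 1 fallen at 42 min, 1 cytosolic fallen and 0 mitochondrial risen at 12 min, and at 0 min 2 cytosolic features higher from BY, 1 cytosolic and 0 mitochondrial higher from RM; here fewer features enter. Without 1 replicate, 1 to 3 mitochondrial features rose at 42 min. At 12 min 2 to 6 cytosolic features fell, 0 to 2 mitochondrial rose and 0 to 1 fell. The replicate block left the calls at 42 min unchanged apart from FRS1 and TYS1, and gave 5 cytosolic features fallen and 2 mitochondrial risen and 2 fallen at 12 min; it changed no decay call of a member. Also at 12 min, cytosolic features fallen were 5 with all SNVs and 11 with library totals. Mitochondrial features risen were 0 with DESeq2, library totals and RLE factors, and fallen 1 with library totals, RLE factors and without the shallow library. The cause was not tested.

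For allele-specific expression at 0 min, left-out replicates gave 1 to 3 cytosolic features higher from BY, 1 higher from RM and 1 to 2 mitochondrial higher from RM, with 191 to 253 and 237 to 308 of all features. All SNVs gave 1 cytosolic feature higher from RM and 1 mitochondrial higher from BY. DESeq2 gave 0 cytosolic higher from BY, 1 cytosolic and 0 mitochondrial from RM, and 89 and 140 of all features. The deepest SNV gave 1 cytosolic from BY, 0 mitochondrial from RM, and 173 and 219 of all features.

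For allele-specific decay over all features, rising and falling shares numbered 49 to 68 and 49 to 61 with a replicate left out, 18 and 24 with the deepest SNV, 47 and 39 without the libraries of 0 min, and 61 and 54 without those of 42 min. DESeq2 gave 61 rising.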
